A study of Mus musculus with 93 samples.

Results

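Hcn4-GFP+ cells of the mouse embryo were compared with Hcn4-GFP+ cells that formed in precardiac spheroids made from embryonic stem cells. The comparison used 42 of the 93 libraries of the study, 5 from embryos and 37 from spheroids, chosen by their labelled source and marker. Another spheroid GFP+ well was left out because it held 6288 counts in all. Each library was made from 10 cells sorted into one well of a plate, and counts of reads per gene were analysed over autosomal genes. The question was how far spheroid cells of the first heart field lie from their embryo counterparts in maturation.

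Both groups carried the same 3 alleles, an Hcn4-GFP reporter, Tbx1-Cre and the Cre-dependent red reporter Ai9, and the sort took cells that were green. Embryo wells came from the dissected embryonic heart region at a stage that the sample titles give as E8.5 and the protocol as E7.75. Spheroid wells came at day 5.5 of differentiation from a stem cell line derived from blastocysts of the same cross, after induction with Activin A, Bmp4 and Wnt ligands, alone or in combinations. The doses behind the sequenced spheroids are not given in the sources used here, nor is the embryo or the differentiation that each well came from, so n counts wells and the p-values measure the spread between wells. All embryo GFP+ wells lay in plate column 12 and all spheroid GFP+ wells in columns 7 to 11, so source and plate column cannot be told apart. Spheroid wells held Xist at 212 to 1921 counts and no count of the Y-linked Ddx3y, whereas embryo wells held at most 1 count of Xist and 1 to 462 of Ddx3y, which is why sex chromosomes were left out.

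The first heart field is the early set of cardiac progenitors that forms the cardiac crescent and later contributes mainly to the left ventricle and atria. Hcn4, a channel of the pacemaker current, is switched on there before it becomes restricted to the conduction system. On leaving the progenitor state these cells start to build sarcomeres, the repeating units of actin thin filaments and myosin thick filaments anchored at Z discs, while pluripotency genes and epithelial junctions are lost on the way from the epiblast to mesoderm.

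The embryo GFP+ libraries stood apart from the others in ways that touch every result. They had 712732 to 2525460 counts (median 979550) and 6189 to 8302 genes with a count, against 828193 to 4371849 counts and 12837 to 14671 genes in spheroid GFP+ wells. Embryo RFP+ wells of the same study, sorted for the Tbx1-Cre lineage, had 10263 to 13052 genes. Pearson's r of log2 CPM (counts scaled to the same library size) between embryo GFP+ wells was 0.427 to 0.478, compared with 0.835 to 0.936 between spheroid GFP+ wells. Ribosomal protein genes took 1.65% to 2.20% of the counts in embryo wells and 6.18% to 7.80% in spheroid wells. Of the 11436 autosomal genes tested, 1849 (16.2%) had no count in any of the 5 embryo wells. A missing count was common for genes at low level, since 43.4% of the 2721 genes under 10 CPM in spheroids had none, and it was rare at high level, where 1 of 622 genes at 300 CPM or more had none. The part of these differences in the results below was not tested.

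**Figure D1:**
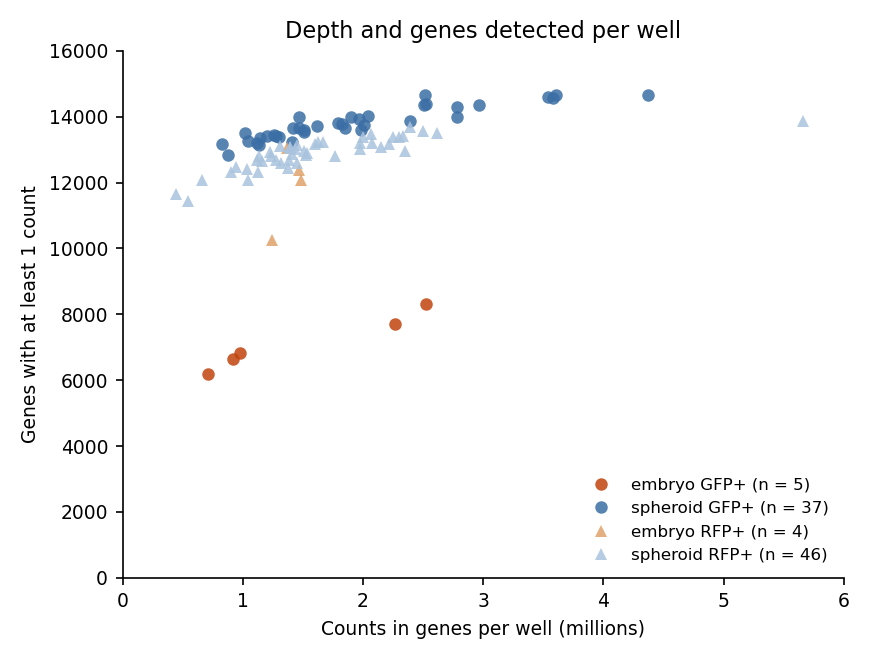
Total counts in genes per well (horizontal axis) against genes with at least 1 count (vertical axis), 1 point per library. The 5 embryo GFP+ wells lie at 6189 to 8302 genes, below all wells of the other 3 groups.

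Because embryo wells varied more than spheroid wells, a gene is called here when both edgeR's quasi-likelihood test and limma with a separate weight for each group gave a Benjamini-Hochberg adjusted p under 0.1 in the same direction. On that rule 625 genes (5.47%) were higher and 1348 (11.8%) were lower in embryo wells. These shares of all tested genes are the background for every count of called list members below. edgeR alone, with one spread for both groups, called 2367 genes higher (20.7%) and 5434 lower (47.5%), 68.2% in all. Leaving out 1 embryo well at a time took the lower calls by both tests to between 692 and 831. Of the 1348 lower calls, 947 passed the filter on low counts only through spheroid wells, where they are high, and of the 625 higher calls 39 passed it only through embryo wells. The latter include, among genes described below, Ankrd1, Myh6, Mybpc3, Tnni3, Hspb7, Synpo2l, Casq1, Bmp10, Vsnl1, Tbx5, Thbs4 and Sfrp5. Every embryo well lay above every spheroid well for 285 genes (2.49%) and below all of them for 1569 (13.7%). The median log2 fold change over all tested genes was -0.62, and it moved to -0.47 with DESeq2 size factors. Among the 2412 genes whose group means averaged 100 CPM or more, a level chosen after the data were seen, the median was -0.02, with 18.4% called higher and 23.3% lower. In pools of sorted cells, fewer cells of a type and less RNA per cell cannot be told apart.

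Promoter windows are shown for 4 genes. Of these, 3 are sarcomere or sarcomere-associated genes called higher in embryo wells, and Krt8 is a keratin that edgeR alone called lower there. Each window runs from 250 bases before to 50 bases after the RefSeq start on GRCm38.p6, 5′ to 3′ on the strand of the gene, with capitals for motif matches on either strand. The motifs were the CArG box, which binds serum response factor and its partner myocardin, and the MEF2 box, both by their usual consensus, then the TATA element TATAAA, then the TEAD element GGAATG and finally the GATA element AGATAA. In Krt8 the TATAAA matches of the opposite strands overlap each other. The Actc1 window is chr2:114052826-114053125 on the minus strand, that of Myl7 is chr11:5898733-5899032 on the minus strand, that of Ankrd1 is chr19:36119795-36120094 on the minus strand and that of Krt8 is chr15:102004293-102004592 on the minus strand.
Actc1: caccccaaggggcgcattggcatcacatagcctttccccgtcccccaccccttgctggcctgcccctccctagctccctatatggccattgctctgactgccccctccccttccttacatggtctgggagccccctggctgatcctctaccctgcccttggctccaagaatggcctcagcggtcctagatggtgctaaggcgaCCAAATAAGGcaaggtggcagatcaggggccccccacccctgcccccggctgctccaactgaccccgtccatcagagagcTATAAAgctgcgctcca
Myl7: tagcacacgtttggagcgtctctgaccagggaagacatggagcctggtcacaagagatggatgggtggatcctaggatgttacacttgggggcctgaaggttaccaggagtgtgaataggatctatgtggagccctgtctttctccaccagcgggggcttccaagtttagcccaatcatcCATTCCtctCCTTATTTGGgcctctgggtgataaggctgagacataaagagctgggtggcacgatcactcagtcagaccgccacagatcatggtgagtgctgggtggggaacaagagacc
Ankrd1: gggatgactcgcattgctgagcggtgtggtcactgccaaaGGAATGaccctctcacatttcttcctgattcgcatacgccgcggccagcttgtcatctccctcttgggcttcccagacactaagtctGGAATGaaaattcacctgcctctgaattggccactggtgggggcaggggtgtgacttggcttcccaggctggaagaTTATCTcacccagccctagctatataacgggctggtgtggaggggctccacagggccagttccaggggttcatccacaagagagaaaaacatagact
Krt8: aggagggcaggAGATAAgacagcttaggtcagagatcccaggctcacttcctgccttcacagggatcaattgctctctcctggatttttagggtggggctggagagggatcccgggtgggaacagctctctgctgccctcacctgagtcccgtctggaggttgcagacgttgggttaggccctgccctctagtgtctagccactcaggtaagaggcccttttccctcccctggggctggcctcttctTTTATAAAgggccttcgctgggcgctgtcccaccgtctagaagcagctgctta

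Both the Actc1 and the Myl7 window hold a CArG box upstream of the start, beginning at -47 and -61, and Ankrd1 holds GGAATG at 2 places and AGATAA on the opposite strand. A CArG box was found in 8 of the 47 windows (17%) of the sarcomere genes called higher in embryo wells, of which 32 of 39 genes had a window, against 1.63% of the 32851 windows of all genes. GGAATG was in 16 of those 47 windows (34%) against 14.7% of all windows, and the MEF2 box in 5 (10.6%) against 3.19%. AGATAA was in 6 of the 47 (12.8%) against 11.2%, and TATAAA in 8 (17%) against 13.6%. A match gives the letters only, and these shares are descriptions of a list whose members were selected by their calls.

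Sarcomere genes showed the widest gap between the sources. Summed over the 63 genes of the thin filament, thick filament and Z disc lists, they reached 29950 to 86157 CPM in embryo wells (median 50875) and 957 to 3213 CPM in spheroid wells (median 1462). The lowest embryo well was 9.32-fold above the highest spheroid well, and the ratio of the medians was 34.8.

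The thin filament list held 16 autosomal genes, of which 14 passed the filter, 10 were called higher and none was called lower, and 2 of the 10 passed only through the embryo wells. Actc1, cardiac alpha actin and the main actin of the embryonic heart, was at 11054, 22841, 7170, 12535 and 18915 CPM in embryo wells A12 to E12. In spheroid wells it ran from 0 to 257 CPM with a median of 2.90, so the groups did not overlap. The mean was 14503 ± 6295 CPM (SD, n = 5) in embryo wells and 22.1 ± 48.3 CPM (SD, n = 37) in spheroid wells, a log2 fold change of 9.35 ± 0.65 (SE) with an adjusted p of 2.41e-17 in edgeR and 6.05e-19 in limma.

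Tnnt2, cardiac troponin T, was at 2144, 2466, 1701, 2478 and 1846 CPM in the embryo wells and at 0 to 135 CPM (median 3.72) in spheroid wells. The embryo values lay close together and far from the spheroid wells, with a log2 fold change of 6.82 ± 0.63 (SE, edgeR adjusted p = 3.17e-13). Tnni3, the adult cardiac troponin I, was at 37.2 to 360 CPM against at most 2.81 CPM, and Tnni1, the slow skeletal form used by the embryonic heart, at 1276 to 2634 against 4.85 to 348 CPM. Tpm1, alpha tropomyosin, was abundant in both sources, at 3465 to 10248 CPM in embryo wells and 329 to 897 CPM in spheroid wells, with a log2 fold change of 3.56 ± 0.12 (SE). Neb, the giant thin filament protein of skeletal muscle, went the other way, with 1 count over the 5 embryo wells and 7.19 to 83.4 CPM in spheroid wells. edgeR called Neb lower (adjusted p = 2.51e-10) and limma did not (adjusted p = 0.227).

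Of the 19 autosomal genes of the thick filament and M band list, 14 passed the filter, 11 were called higher and none lower, and 4 of the 11 passed only through the embryo wells. Myl7, the atrial regulatory light chain that marks the whole early heart tube, was at 5299, 12340, 3671, 7481 and 7111 CPM in embryo wells. Spheroid wells held 0 to 402 CPM (median 2.18), and no spheroid well reached an embryo well. The log2 fold change was 7.22 ± 0.81 (SE), with an adjusted p of 1.30e-10 in edgeR. Myh6, the alpha myosin heavy chain, was at 554, 1091, 587, 871 and 673 CPM in embryo wells and was detected in 7 of 37 spheroid wells, at 11 CPM at most. Mybpc3, a myosin-binding protein of the thick filament, was at 97.9 to 1007 CPM against at most 9.03 CPM. Ttn, the titin spring that spans the sarcomere from Z disc to M band, was at 1250 to 7810 CPM against 1.29 to 297 CPM, with a log2 fold change of 5.94 ± 0.55 (SE).

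Myl2, the ventricular regulatory light chain, fell under the filter, with 149, 544, 0, 38.5 and 333 CPM in the embryo wells and at most 1.69 CPM in spheroid wells. It was thus absent from well C12 and present in the other 4. Trim63, a ubiquitin ligase of the sarcomere, was called lower by edgeR alone (log2 fold change -1.47 ± 0.52, adjusted p = 0.0126, limma adjusted p = 0.405), at 0 to 23.6 CPM against 2.43 to 45.4 CPM.

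Within embryo wells, levels per kilobase of annotated exon were used to set related genes side by side, with the limit that close copies can share reads. Myh6 made up 57.4% to 95.6% of the sum of Myh6 and the beta chain Myh7. Tnni3 made up 4.84% to 22.2% of the sum of Tnni3 and Tnni1, so the embryonic troponin I was the higher of the pair in each embryo well. Myl7 made up 98.6% to 100% of the sum of Myl7 and Myl2.

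The Z disc and assembly list held 28 autosomal genes, of which 22 passed the filter, 18 were called higher and none lower, and 5 of the 18 passed only through the embryo wells. Ankrd1, a titin-binding ankyrin repeat protein that responds to stretch, had the largest log2 fold change of the named genes that were higher in embryo wells, 11.93 ± 0.31 (SE, edgeR adjusted p = 1.03e-33), and passed the filter only through those wells. It was at 2940, 2978, 1596, 2817 and 2771 CPM in embryo wells and at 0 to 5.14 CPM in spheroid wells, with counts in 10 of 37. Well C12 was the lowest of the embryo wells and still lay far above all spheroid wells. Hspb7, a small heat shock protein of muscle, was at 29.7 to 287 CPM against at most 5.36 CPM. Synpo2l, an actin-bundling protein of the Z disc, was at 52.0 to 395 CPM against at most 3.31 CPM. Smyd1, a muscle methyltransferase that works with myosin chaperones, was at 64.4 to 1533 CPM against 0.546 to 37.3 CPM.

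**Figure D2:**
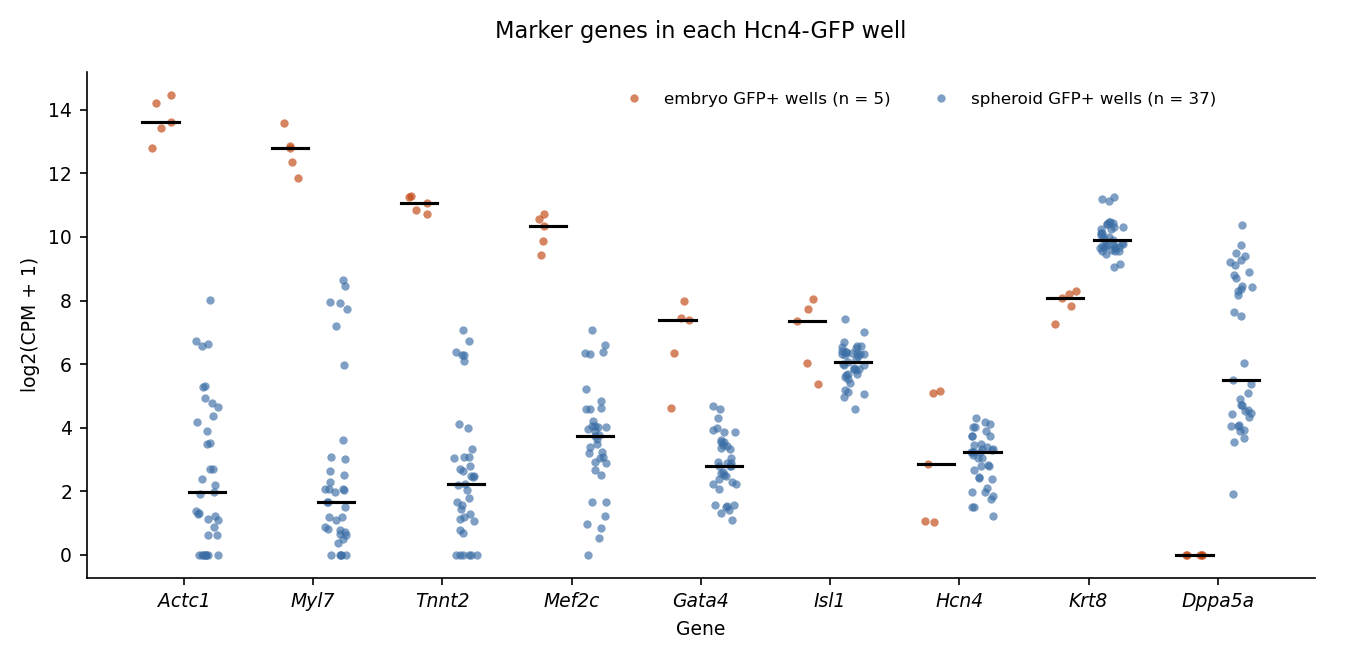
log2(CPM + 1) of 9 genes in each well, with embryo wells in orange (n = 5), spheroid wells in blue (n = 37) and the median of each group as a bar. Actc1, Myl7, Tnnt2 and Mef2c are above all spheroid wells in each embryo well, Gata4, Isl1 and Hcn4 overlap, and Krt8 and Dppa5a are below all spheroid wells.

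Muscle programmes beyond the sarcomere were also higher in embryo wells. In the smooth muscle list, whose genes the early heart tube also uses, 7 of 13 tested members were called higher and none lower. Acta2, smooth muscle alpha actin, was at 3429 to 10845 CPM in embryo wells and 0 to 377 CPM in spheroid wells, with a log2 fold change of 6.68 ± 0.57 (SE). Myl9, a regulatory light chain, was at 426 to 2310 CPM against 0 to 43 CPM.

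In the calcium handling list, 8 of 16 tested members were called higher and 1 lower. Slc8a1, the sodium-calcium exchanger, was at 306, 2228, 731, 981 and 1108 CPM in embryo wells and at 0 to 40.1 CPM in spheroid wells (log2 fold change 7.43 ± 0.49, SE). Atp2a2, the calcium pump of the sarcoplasmic reticulum, was at 1111 to 1815 CPM against 51.0 to 120 CPM, and Ryr2, its release channel, at 25.4 to 278 against 0 to 18.9 CPM. The groups did not overlap for any of the 3. Casq1, a calcium-binding protein of the reticulum that passed the filter only through the embryo wells, was at 8.51 to 379 CPM against at most 3.94 CPM. Cacna1d, an L-type calcium channel, was at 40.9 to 298 CPM against at most 11 CPM. The member called lower was S100a1, a calcium sensor, detected in 1 of 5 embryo wells at 16.1 CPM and at 97.6 to 255 CPM in spheroid wells. Pln, the inhibitor of the pump, fell under the filter, with 134 CPM in B12, 55.9 CPM in E12 and no count in the other embryo wells.

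Among ion channels and pacemaking genes, 4 of 11 tested members were called higher and none lower. No embryo well held a count of 12 of the 24 autosomal members, many of which fell under the filter. Of all tested genes 16.2% had no embryo count, and of those under 10 CPM in spheroids 43.4%. Hcn4 itself, whose locus drives the sorted reporter, passed edgeR alone. It was at 1.06, 34.3, 6.19, 32.9 and 1.08 CPM in embryo wells and at 1.32 to 18.6 CPM (median 8.42) in spheroid wells, and embryo wells lay on both sides of the spheroid range. The log2 fold change was 0.93 ± 0.47 (SE), with an adjusted p of 0.0807 in edgeR, 0.649 in limma and 0.896 in the exact permutation test. Popdc2, a cAMP-binding membrane protein of the heart, was at 164 to 957 CPM against 0.957 to 56.9 CPM.

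Some chamber genes were present in each embryo well and others in part of them. Of 16 tested members, 8 were called higher and none lower. Nppa, natriuretic peptide A and a marker of the chamber myocardium, was at 0, 789, 31, 0 and 435 CPM in embryo wells A12 to E12 and at most 3.64 CPM in spheroid wells. It fell under the filter of the fits, and the exact permutation test gave an adjusted p of 0.0011. Nppb, its relative, was detected in 4 of 5 embryo wells at 39.3 to 227 CPM. Bmp10, a ligand of the trabecular myocardium, was at 118, 103, 35.9, 83.6 and 78.5 CPM in embryo wells and had no count in any spheroid well, which makes it at least 42.1-fold higher in embryo wells. Vsnl1, a calcium sensor of the inflow and atrial myocardium, was at 59.1 to 243 CPM against at most 6.92 CPM. Both Bmp10 and Vsnl1 passed the filter only through the embryo wells. Gja5, the connexin of atrial and conduction cells, was found in C12 alone, at 85.5 CPM.

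Of the 26 cardiac transcription factors tested, 9 were called higher and none lower. Tbx5, a T-box factor of the first heart field, was at 60.6, 126, 221, 329 and 153 CPM in embryo wells and 0 to 8.74 CPM (median 0) in spheroid wells. The groups did not overlap, with a log2 fold change of 6.98 ± 0.53 (SE, edgeR adjusted p = 6.29e-16), but Tbx5 passed the filter only through the embryo wells. Mef2c, a partner of many cardiac factors, was at 1519, 687, 933, 1681 and 1312 CPM against 0 to 133 CPM (median 12.3), a log2 fold change of 5.75 ± 0.49 (SE). Myocd, the coactivator of serum response factor, was at 774 to 941 CPM against 0 to 72.9 CPM, and its 5 embryo values were the tightest of these factors. Tbx20, a T-box factor of the heart tube, was at 333 to 829 CPM against 0 to 23.5 CPM.

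Gata4, a zinc finger factor of early cardiac mesoderm, was at 23.4, 166, 254, 80.3 and 173 CPM in embryo wells and at 1.13 to 24.9 CPM (median 5.95) in spheroid wells. It was detected in all 37 spheroid wells, and 1 of them reached the lowest embryo well. Its log2 fold change was 4.12 ± 0.37 (SE), with an adjusted p of 1.05e-13 in edgeR and 4.84e-08 in limma. Nkx2-5, a homeobox factor of committed cardiac cells, was at 21.3, 31.2, 0, 38.5 and 0 CPM in embryo wells and was detected in 2 of 37 spheroid wells, with an adjusted p of 0.0011 in the exact permutation test and too few counts for the fits. Spheroid GFP+ wells thus all held Hcn4, whose locus drives their label, in a range that overlapped the embryo wells. All 37 also held Gata4, at low level, while Tbx5 and Nkx2-5 were at 0 in most of them. Nkx2-5 was at 0 in embryo wells C12 and E12 as well.

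Of the progenitor factors, Hand1 and Isl1 overlapped between the sources. Hand1, a helix-loop-helix factor of early heart and extra-embryonic mesoderm, was at 51.0, 49.0, 0, 1.88 and 97.8 CPM in embryo wells and 0 to 147 CPM (median 35.9) in spheroid wells. Its log2 fold change was -0.02 ± 0.64 (SE), its sign turned under several settings, and the exact permutation test gave an adjusted p of 0.286. Isl1, a LIM homeobox factor of cardiac progenitors, was at 162, 40.1, 212, 265 and 64.5 CPM in embryo wells and 23.2 to 169 CPM (median 65.3) in spheroid wells. Its log2 fold change of 1.10 ± 0.28 (SE) passed edgeR (adjusted p = 7.20e-04) and the exact permutation test (adjusted p = 0.0105) but not limma (adjusted p = 0.350). In the second heart field and pharyngeal list none of the 16 tested members was called by both tests, and edgeR alone called 5 higher and 6 lower. Tbx1 had no count in any embryo GFP+ well and 2 counts over all spheroid wells.

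Keratins and epithelial junction genes were lower in embryo GFP+ wells than in spheroid GFP+ wells. The list summed to 1130 to 1897 CPM in the former and to 4282 to 11040 CPM in the latter, with no overlap. In RFP+ wells it summed to 1216 to 2722 CPM in embryo wells and 1217 to 2909 CPM in spheroid wells. Spheroid GFP+ wells were thus above the other 3 groups. Krt8 averaged 102 CPM in embryo RFP+ wells and 154 CPM in spheroid RFP+ wells. All 33 members were tested, and 9 (27.3%) were called lower and none higher, against 11.8% lower of all tested genes. All 9 passed the filter only through spheroid wells. edgeR alone called 26 lower (78.8%, against 47.5%) and 1 higher, and 16 members (48.5%, against 16.2%) had no count in any embryo well. Krt8, a keratin of simple epithelia, was at 293, 313, 273, 225 and 153 CPM in embryo wells and at 534 to 2447 CPM (median 947) in spheroid wells. Each embryo well was below each spheroid well, the log2 fold change was -2.12 ± 0.28 (SE, edgeR adjusted p = 5.41e-09) and the exact permutation test gave the smallest p it allows (1.18e-06, adjusted p = 2.12e-06), while limma gave an adjusted p of 0.220. The permutation p restates the lack of overlap. Non-overlap in this direction was common among genes at this level, holding for 38.7% of the 622 genes at 300 CPM or more in spheroids.

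Krt18, the partner of Krt8, was at 14.9 to 189 CPM in embryo wells against 1147 to 4511 CPM, with a log2 fold change of -4.24 ± 0.36 (SE, edgeR adjusted p = 3.68e-14, limma adjusted p = 0.238). Cldn4 and Cldn6, claudins of tight junctions, and Epcam and Cdh1, adhesion proteins of epithelia, had no count in any embryo well. Cldn4 was at 91.9 to 721 CPM in spheroid wells, and against a limit of 3 counts per embryo library it was at least 158-fold lower in embryo wells. On the same limit Cldn6 was at least 67.6-fold lower, Epcam at least 51.1-fold and Cdh1 at least 39.7-fold, and of these 4 genes limma called Cldn6 and Cdh1. Desmosomal genes, part of which the myocardium keeps for its cell contacts, were mixed. Pkp3 had no count in any embryo well and 4.78 to 67.5 CPM in spheroid wells, and Dsc2 was at 0 to 19.8 against 0 to 49.7 CPM, both lower by edgeR alone. Dsp was at 0 to 866 CPM in embryo wells against 103 to 431 CPM (log2 fold change 0.42 ± 0.38, SE, edgeR adjusted p = 0.337), Pkp2 and Jup passed neither test, and Dsg2 was higher by edgeR alone (0 to 138 against 7.44 to 68.6 CPM).

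Pluripotency genes differed among themselves. Of 36 tested members, 3 were called lower and none higher by both tests, a share of 8.33% that lies below the 11.8% of all tested genes called lower. All 3 passed the filter only through spheroid wells. edgeR alone called 26 lower and 2 higher, and 17 members (47.2%) had no count in any embryo well, against 16.2% of all tested genes. Dppa5a, a marker of naive stem cells and of germ cells, had no count in the 5 embryo wells. In spheroid wells it ran from 2.76 to 1329 CPM with a median of 44.1, and 17 of 37 wells were at 100 CPM or more. Its mean of 247 ± 310 CPM (SD, n = 37) was at least 96.0-fold above the limit of 3 counts per embryo library, with an exact permutation p of 1.18e-06 and a limma adjusted p of 0.675. That permutation p restates the lack of overlap, and Dppa5a passed the filter only through spheroid wells. Pou5f1, the core factor of pluripotency, was at 7.05 to 66.3 CPM in spheroid wells and had no count in embryo wells, a difference of at least 10.8-fold. Dppa4 and Utf1, chromatin factors of pluripotent cells, were likewise without counts in embryo wells and at 23 to 106 and 9.98 to 122 CPM in spheroid wells. At spheroid means between 20 and 50 CPM, 8.55% of all tested genes had no count in any embryo well, which is the background for genes at the level of Pou5f1. Members that other dividing progenitors share, such as Lin28a (22.3 to 166 against 44.9 to 150 CPM), overlapped between the sources.

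**Figure D3:**
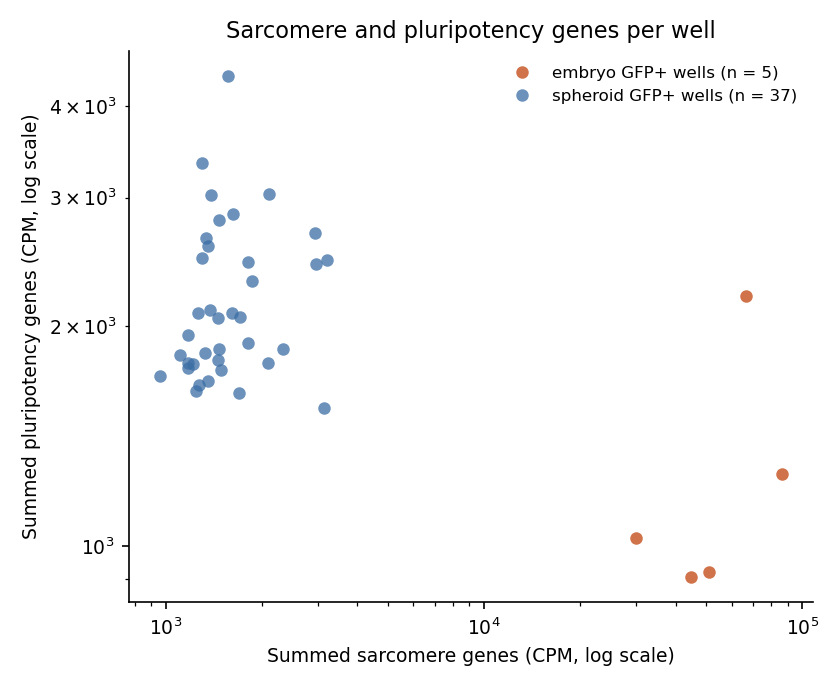
Summed CPM of the 63 sarcomere genes (horizontal axis, log scale) against summed CPM of the pluripotency list (vertical axis, log scale), 1 point per well. Embryo wells (orange, n = 5) lie at 29950 CPM or more of sarcomere genes and spheroid wells (blue, n = 37) at 3213 or less, while on the vertical axis the groups overlap.

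Streak and nascent mesoderm genes were mostly without counts in embryo wells. Of 29 autosomal members, 22 had no count in any embryo well, among them T and Mesp1, early mesoderm factors, and of the 15 that were tested 10 had none. Such genes were low in spheroids too, and of all tested genes 43.4% under 10 CPM and 20.5% between 10 and 20 CPM had no embryo count. T was at 0 to 85.7 CPM in spheroid wells (median 13.3), Mesp1 at 0 to 8.48 CPM (median 0). Wnt3, a ligand of the streak, was at 6.16 to 56.0 CPM in spheroid wells and without counts in embryo wells. The 2 members called higher in embryo wells were Pdgfra, a receptor of cardiac and paraxial mesoderm (35.1 to 643 against 4.85 to 86.1 CPM), and Foxh1, a partner of Smad proteins (76.8 to 271 against 28.5 to 88.7 CPM).

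Targets of p53, the factor that answers DNA damage and other stress, gave the largest share of lower calls of all lists. Of 29 tested members, 16 were called lower (55.2%) and none higher, against 11.8% of all tested genes called lower. Of those 16, 15 passed the filter only through spheroid wells. The list summed to 452 to 1209 CPM in embryo wells and 4924 to 9282 CPM in spheroid wells, and to 1155 to 1295 and 1569 to 2948 CPM in embryo and spheroid RFP+ wells. Cdkn1a, the inhibitor of cyclin-dependent kinases, was at 1.06, 0, 0, 0.470 and 0 CPM in embryo wells and 388 to 755 CPM in spheroid wells (edgeR adjusted p = 3.54e-30, limma adjusted p = 0.0503). Ccng1, a cyclin induced by p53, was at 0 to 27.2 CPM against 550 to 1313 CPM. Mdm2, the ligase that degrades p53, was at 0 to 245 CPM against 713 to 1810 CPM. Pmaip1, a killer protein of the Bcl2 family, and Trp53inp1, an antiproliferative factor, had 1 count each over the embryo wells. The ratio of their count rates, spheroid over embryo, was 3137 (95% counting interval 563 to 123912) for Pmaip1 and 8036 (1442 to 317423) for Trp53inp1. Of the 622 genes at 300 CPM or more in spheroids, 7 had 3 counts or fewer over the 5 embryo wells. Those were Trp53inp1, Cdkn1a, Pmaip1, Cldn4, Ndrg1, Ddit4l and Ifitm3, the last 2 named after their values were seen. Bax, a p53 target that most cells express, was at 48.3 to 143 against 66.7 to 185 CPM and was not called (edgeR adjusted p = 0.418).

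Metabolic genes differed by branch. In glycolysis, 11 of 20 tested members were called higher and none lower, and the list summed to 16389 to 27108 CPM in embryo wells against 4853 to 10655 CPM. Ldha, lactate dehydrogenase A, was at 9736, 9031, 6005, 7945 and 8517 CPM in embryo wells and 685 to 2182 CPM in spheroid wells, a log2 fold change of 2.74 ± 0.15 (SE). Slc16a3, a lactate exporter, was at 177 to 299 CPM against 0 to 14.6 CPM. In the respiratory chain, 24 of 73 tested members were called lower and 3 higher, and the list's median log2 change was -0.51. In all, 68 members averaged 100 CPM or more over the sources, a level at which 18.4% of all tested genes were called higher, 23.3% lower and the median was -0.02. Ndufa7, a small subunit of complex I, was at 50.8 to 188 CPM against 370 to 585 CPM, whereas Sdha, the large subunit of complex II, was at 472 to 972 CPM against 198 to 387 CPM. Fabp3, a fatty acid carrier of heart muscle, was called lower in embryo wells, at 22.1 to 112 CPM against 299 to 904 CPM.

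Imprinted genes had members in both directions, with 10 of 26 tested called higher and 4 lower. Igf2, the fetal insulin-like growth factor, was at 528 to 768 CPM in embryo wells against 0.662 to 66.8 CPM, and Grb10, an adaptor that restrains growth signals, at 1514 to 3776 against 7.19 to 68.7 CPM. H19, the noncoding neighbour of Igf2, was at 443 to 1391 against 40.8 to 220 CPM. Impact, a regulator of translation, was lower, at 29.8 to 606 against 974 to 1810 CPM.

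Other genes with the largest changes included secreted factors. Thbs4, a thrombospondin of matrix, was at 13.6 to 649 CPM against at most 4.59 CPM. Sfrp5, a Wnt antagonist of the foregut and inflow region, was at 89.1 to 193 CPM against at most 3.37 CPM. Both passed the filter only through the embryo wells. Angpt1, the ligand of the Tie2 receptor, was at 374 to 2457 CPM against at most 16.4 CPM. On the other side Anxa1, Sycp3, Atf3, Prrg4 and Dmkn had no count in any embryo well, with spheroid means of 224, 204, 197, 169 and 152 CPM. Their bounds lay between at least 59.1-fold for Dmkn and at least 87.1-fold for Anxa1. limma called Prrg4 of these 5 (adjusted p = 0.0539). In the amino acid stress list, which Atf4 drives, 9 of 28 tested members were called lower and 1 higher, and in the immediate early list 5 of 20 were lower and 1 higher.

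**Figure D4:**
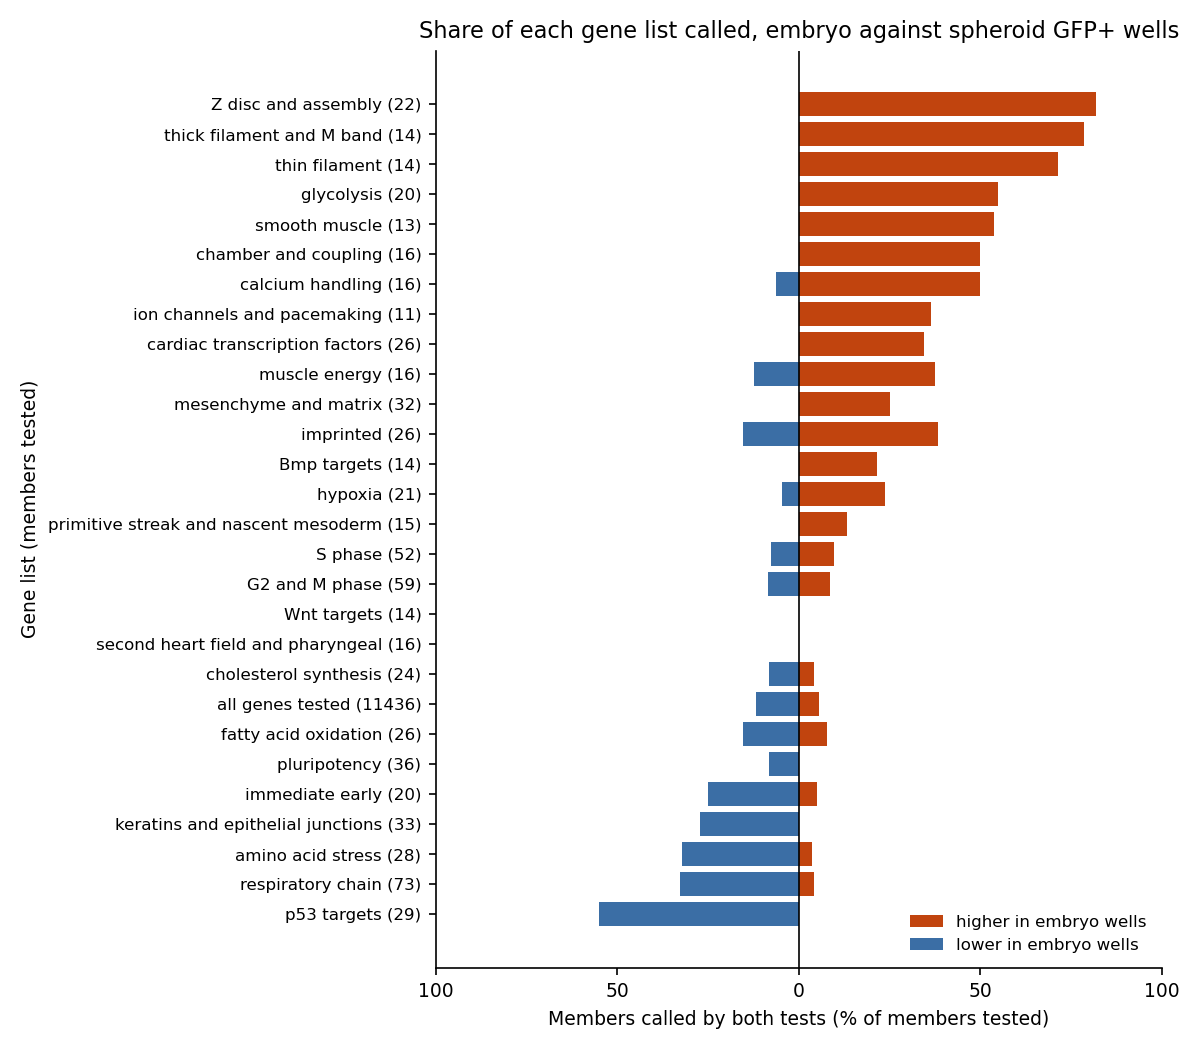
Share of the tested members of each gene list with at least 10 tested that both tests called, higher in embryo wells to the right and lower to the left, in percent, with the number tested in parentheses and all 11436 genes for reference. The 3 sarcomere lists reach 71.4% to 81.8% higher (66.7% to 76.5% without members that passed the filter through embryo wells alone). The p53 targets reach 55.2% lower, and nearly all of these lower calls passed the filter through spheroid wells alone.

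Cell cycle lists had calls in both directions. Of all tested genes 5.47% were called higher and 11.8% lower, and several counts in this paragraph lie near those shares. In S phase genes, 5 of 52 tested were called higher and 4 lower, and in G2 and M phase genes, 5 of 59 higher and 5 lower. Bmp targets had 3 of 14 called higher and none lower, among them Bmp4 itself (110 to 320 against 6.55 to 111 CPM), and Wnt targets had none of 14 called by both tests. With edgeR alone, most tested Wnt targets were lower and Fzd7 was higher, against 47.5% of all tested genes lower. In the hypoxia list 5 of 21 were called higher and 1 lower, in cholesterol synthesis 1 of 24 higher and 2 lower, in fatty acid oxidation 2 of 26 higher and 4 lower, and in muscle energy 6 of 16 higher and 2 lower. Mesenchyme and matrix genes had 8 of 32 called higher and none lower.

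Marker lists of other cell types gave few calls. Blood genes summed to 0 to 54.8 CPM in embryo wells and 13.3 to 114 CPM in spheroid wells. Endothelial genes summed to 4.25 to 98.4 against 41.1 to 112 CPM, and neural and surface ectoderm genes to 1.08 to 124 against 64.4 to 190 CPM. No member of the 3 lists was called by both tests. Of the 22 autosomal endoderm genes 18 had no count in any embryo well. All of the 18 but Trf and Cer1 averaged under 10 CPM in spheroids, a level at which 43.4% of all tested genes had no embryo count. The single member called was Dab2, which other tissues use as well (93.5 to 887 against 0 to 41.2 CPM). Epicardial and septum transversum genes summed to 61.9 to 606 CPM in embryo wells against 89.1 to 237 CPM. Wt1 was found in B12 and E12, and Tbx18 in D12 and E12 at 141 and 143 CPM. The part of these cells in the results was not tested.

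Spheroid wells also differed among themselves. Actc1 was detected in 29 of 37 wells, at 10 CPM or more in 14 and at 100 CPM or more in 2. Well G10 had the most Actc1 (257 CPM), Acta2 (377 CPM), Mef2c (133 CPM) and Myh6 (11 CPM), yet its Actc1 was 27.9-fold below the lowest embryo well. Myl7 was at 100 CPM or more in 6 wells, with 402 CPM in B11 and 348 CPM in B9. Sarcomere and pluripotency sums, on the log2 scale, had a relation that did not pass its test over the 37 wells (Pearson's r = 0.167, permutation p = 0.325; Spearman's rho = 0.280, permutation p = 0.0929; adjusted over the pair 0.325 and 0.186). Without the 2 wells farthest from the median of the sarcomere sum r was 0.272 (permutation p = 0.115) and rho was 0.373 (permutation p = 0.0292) over 35 wells, and with the well of 6288 counts kept rho was 0.326 (permutation p = 0.0463), so the rank relation depended on which wells entered. Within plate columns 7 to 11 r was 0.0432, -0.333, 0.380, 0.390 and 0.160, over 6 to 8 wells each.

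The same contrast in Tbx1-RFP+ wells shows which differences were wider in the green cells. There 4 embryo wells were set against 39 spheroid libraries, after 7 pairs of spheroid wells in neighbouring plate columns, with r of 0.946 to 0.986, had been summed. The difference between the 2 contrasts was tested from their separate fits with 7 degrees of freedom, and 4888 of 10243 genes (47.7%) passed with edgeR errors and 174 (1.7%) with both edgeR and limma errors. Actc1 was at 398 ± 128 CPM (SD, n = 4) in embryo RFP+ wells and 18.2 ± 11.8 CPM (SD, n = 39) in spheroid RFP+ wells, a log2 fold change of 4.44 against 9.35 in green cells. That difference of 4.91 ± 0.71 (SE) passed both tests (edgeR adjusted p = 0.00277, limma adjusted p = 0.0281). Myl7 differed by 2.36 ± 0.93 (SE, edgeR adjusted p = 0.0857, limma adjusted p = 0.0419) and Tnnt2 by 2.22 ± 0.72 (SE, edgeR adjusted p = 0.0469, limma adjusted p = 0.0336). The median spheroid well held more Actc1 in RFP+ than in GFP+ wells (18.2 against 2.90 CPM). The same held for Myl7 (7.07 against 2.18 CPM), and Tnnt2 was alike (3.73 and 3.72 CPM). The highest spheroid wells were GFP+ for all of them, at 257 against 59.8, 402 against 73.6 and 135 against 13.2 CPM. Gata4, Mef2c, Isl1 and Krt8 passed with edgeR errors and not with limma errors, and Hand1 and Dppa5a passed with neither. For Isl1 the contrast was larger in red cells, with log2 fold changes of 2.53 in RFP+ and 1.10 in GFP+ wells.

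**Figure D5:**
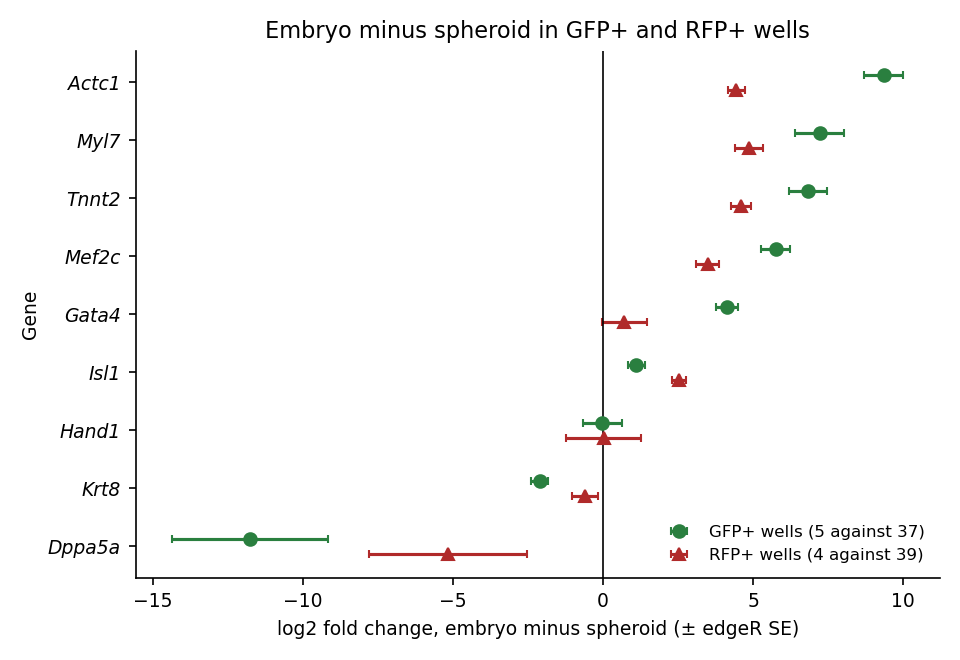
log2 fold change of embryo minus spheroid wells for 9 genes, with the edgeR standard error as bars, in GFP+ wells (circles, 5 against 37) and RFP+ wells (triangles, 4 against 39). Actc1, Myl7 and Tnnt2 are further to the right in GFP+ wells, by 4.91, 2.36 and 2.22.

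Actc1, Myl7, Tnnt2 and Krt8 did not overlap between the groups. Their direction against any part of the spheroid wells was therefore set beforehand, and only the sizes are given here. Against the wells of 1 column at a time, the log2 fold change of Actc1 was 8.83 to 10.46, that of Myl7 6.84 to 7.88, that of Tnnt2 6.38 to 7.42 and that of Krt8 -2.57 to -1.82. Leaving out 1 embryo well at a time gave 9.12 to 9.53 for Actc1 and -2.21 to -1.99 for Krt8.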

How the data were processed

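RNA of 10 sorted cells per well was amplified by template switching and tagmented. Per the labels, reads were trimmed with Trimmomatic 0.36, mapped to mm10 with HISAT2 2.0.4 and counted with featureCounts 1.5.2, and the authors deposited whole counts per gene without normalization. Without molecular identifiers, limits and intervals cover counting error only. Chromosomes came from GENCODE and RefSeq on GRCm38. Counts were fitted in R 4.3.3 with edgeR 4.0.16 (TMM, filterByExpr with a minimum count of 10, quasi-likelihood test, threshold 0.1) and limma 3.58.1 (voom with a weight per group). The requirement that both pass was added after the data were seen, because the spread differed between groups. DESeq2 1.42.0 was an alternative. Both tests were tried on simulated counts, whose outcome is not given here and is not used to support the calls. CPM use TMM. Exact two-sided permutation tests compared mean log2 CPM (prior count 2) over all 850668 ways to choose 5 of 42 wells, adjusted over 148 genes. Apart from the markers and cardiac factors, those genes were picked because edgeR had called them on the same wells. The adjustment thus runs over a selected set, and passing it adds no independent support. For genes without overlap between the groups, markers included, the permutation p restates that separation. The Benjamini-Hochberg method was used throughout.

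Named genes were 13 markers and cardiac factors, the 10 largest changes per direction without overlap and at 100 CPM or more, and up to 3 called members per list and direction at 20 CPM or more, and any other gene named was chosen after its values were seen. The members and the 32 gene lists were chosen with earlier results of these data known. A fold for a gene without counts in embryo wells was computed against 3 counts per library.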

Additional observations from a re-analysis of the deposited data

Results flagged for a closer look

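Among 31 genes checked in the 5 embryo wells, 4 had 1 well set apart from the rest by Dixon's ratio, which chance does in about 1 in 20 groups. Ankrd1 in well C12 was at 1596 CPM, with the next well at 2771 CPM. Synpo2l in B12 was at 395 CPM, with the next at 134 CPM. Trp53inp1 in C12 was at 1.24 CPM and Pmaip1 in D12 at 0.470 CPM, each a single count while the other wells had none. Any gene with that pattern has a ratio of 1, so the rate of 1 in 20 does not apply to Trp53inp1 and Pmaip1.

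The embryo minus spheroid contrast differed between GFP+ and RFP+ wells for Actc1 (by 4.91 on the log2 scale), Myl7 (2.36) and Tnnt2 (2.22), with edgeR and with limma errors.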

How the results depend on the processing

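edgeR alone called 7801 genes, limma with group weights 2173, and edgeR against spheroid wells of columns 7 to 11 one at a time 3539, 3122, 2500, 3099 and 2221, with fewer wells in each. By both tests, lower calls (1348) became 4687 with no filter, 498 at 20 CPM or more in 5 wells, 2067 against column 7, 844 with thinned libraries, 698 at an adjusted p under 0.05 and 692 to 831 without 1 embryo well; the cause was not tested. Higher calls (625) stayed between 546 and 811. The GFP and RFP difference passed for 4888 genes with edgeR errors and 175 with limma errors. Of 29 named genes refitted under each alternative, 1 changed sign: Hand1 had log2 fold changes of 0.17 with DESeq2, 0.17 with DESeq2 size factors, 0.036 with total counts, 0.11 with the stricter filter, 0.084 against rows A to E, 0.33 and 0.32 against columns 10 and 11, 0.17 thinned, 0.24 with the length trend out, and -0.66 to 0.31 without 1 embryo well. Actc1 was called by both tests in 20 of 21 alternatives, all but that with no filter, and Myl7, Tnnt2, Tbx5, Mef2c and Gata4 in 21 of 21. Among genes lower in embryo wells, Krt8 was called by both tests in 2 of 21, Dppa5a in 0, Cldn4 in 6, Trp53inp1 in 7 and Cldn6 in 11. Among genes averaging 100 CPM or more, 443 of 2412 were higher and 563 lower; this choice, and calls by both tests, were made after the data were seen. No paired analysis was possible because embryo and spheroid wells share no replicate, embryo or culture in the labels. Of genes under 10 CPM in spheroids 43.4% had no count in any embryo well, which limits what can be said of low genes.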
